A study of Mus musculus with 2 samples.

Results

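The genes described here mostly encode surface enzymes and receptors for ATP, NAD and adenosine outside T cells, beside adenosine deaminase and a dipeptidyl peptidase. They are 9 genes chosen by symbol, Entpd1, Nt5e, Cd38, Art2b, P2rx7, P2rx4, Adora2a, Ada and Dpp4, of 22609 genes listed, and all 9 were found in both libraries. The RNA was taken from CD8+ regulatory T cells, a CD8+ subset that holds other immune cells in check, sorted from spleens of unimmunised mice aged 3 months. One library was made from mice of genotype Tgfbr2-/-Eomes-/-, called DKO here, which carry the label of a loss of one TGF-beta receptor chain and of the T-box transcription factor Eomes. The other was made from WT mice. The labels give no treatment, strain, number of pooled animals, sort markers or deleting Cre for either group. The question is how these cells differ without TGF-beta signalling and Eomes. Each genotype had 1 library, so differences have no replicate check and no p-value is given. Intervals are exact 95% ones, cover counting error only and compare 2 libraries rather than genotypes.

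ATP that leaves stressed or activated cells is broken down on the cell surface in steps. CD39, the product of Entpd1, converts ATP and ADP to AMP, and CD73, the product of Nt5e, converts AMP to adenosine. Adenosine restrains T cells through the A2A receptor (Adora2a), which raises cyclic AMP, and adenosine deaminase (Ada) removes it as inosine. ATP itself opens the P2X4 and P2X7 channels. In mouse T cells NAD is a further trigger: ART2.2, the product of Art2b, uses it to attach ADP-ribose to P2X7, which can open the channel, shed surface proteins and kill the cell, while CD38 competes by consuming NAD. CD26, the product of Dpp4, trims chemokines, and in humans it also anchors adenosine deaminase.

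The DKO library held 19661212 gene counts and the WT library 22307065. CPM are counts scaled to library size with TMM factors, which correct for library composition. Eomes had 180 CPM in the DKO library and 469 CPM in the WT library, and Tgfbr2 had 244 and 357 CPM in the same order, so both targeted transcripts were lower but still counted in the library labelled DKO. The most abundant transcripts among the CD8+ T cell markers used here were Cd8b1 and Il2rb, in both libraries. Cd8b1 had 1220 CPM in the DKO library and 1201 CPM in the WT library, and Il2rb, the CD122 chain of the interleukin-2 receptor, had 2213 and 2675 CPM in the same order.

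Entpd1 and P2rx7 were the 2 members at least 2-fold higher in the DKO library. None was at least 2-fold lower, and 7 met neither limit. To be called higher or lower, a gene needed a difference of 2-fold or more, an interval that left out 1 and a level of 1 CPM in either library. All 9 members reached 1 CPM. Of 11735 genes at this minimum, 11.6% were higher and 3.60% lower, beside 2 higher and 0 lower of 9 members. The share of higher genes depended on abundance. Among the 4928 genes with 20 to 100 CPM in the higher library, where 7 of the members lie with Entpd1 and P2rx7 among them, 4.71% were higher and 0.690% lower. Among the 2627 genes of 100 CPM or more, where Adora2a and Dpp4 lie, 2.17% were higher and 0.761% lower. The median log2 ratio was 0.19 for the 9 members and 0.00 for all genes compared. Intervals left out 1 for 6 of 9 members (4 above 1 and 2 below) and for 71.5% of all genes compared, so an interval that leaves out 1 was common at this depth.

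**Figure D1:**
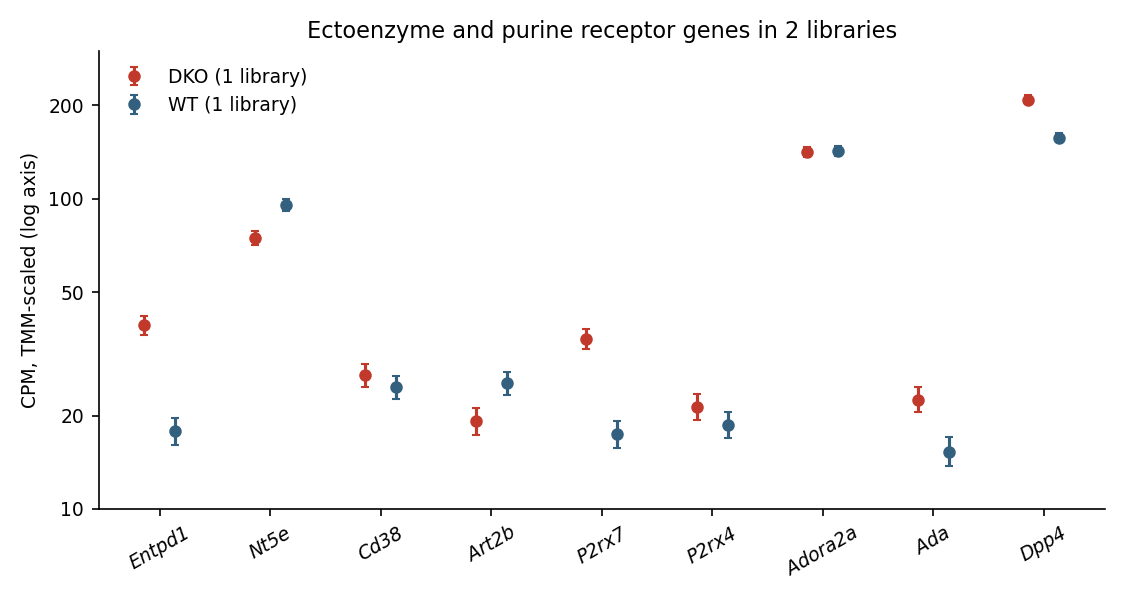
Level of each member in the DKO library (red, left of each pair) and the WT library (blue, right), in TMM-scaled CPM on a log axis; bars are exact 95% Poisson intervals of the count. The red points of Entpd1 and P2rx7 stand clear of the blue ones, at 39.1 and 35.3 CPM in the DKO library against 17.8 and 17.4 CPM in the WT library, while the points of Adora2a lie level.

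Entpd1, the first step of ATP breakdown, had 781 counts in the DKO library and 390 in the WT library, or 39.1 and 17.8 CPM in the same order. It was 2.20-fold higher in the DKO library (1.94 to 2.49), a ratio above that of 90.1% of the genes compared. The interval includes 2-fold, so counting error alone could place Entpd1 on either side of that limit. Nt5e, the next step, had 1495 counts in the DKO library and 2091 in the WT library, or 74.8 and 95.3 CPM. It lay on the other side of 1 and was 1.27-fold lower in the DKO library (1.19 to 1.36), short of the 2-fold limit. The balance of both enzyme transcripts therefore differed between the libraries. Per kilobase of transcript, Entpd1 stood at 0.494 of the level of Nt5e in the DKO library and at 0.177 in the WT library. With the summed length of all annotated exons these quotients were 0.805 and 0.288. The quotient was 2.80-fold higher in the DKO library (exact interval of the odds ratio of the counts 2.43 to 3.23), and this change depends on neither the scaling of the libraries nor the length used.

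P2rx7 had 705 counts in the DKO library and 382 in the WT library, or 35.3 and 17.4 CPM. It was 2.02-fold higher in the DKO library (1.79 to 2.30), a ratio above that of 88.7% of the genes compared and just past the 2-fold limit. P2rx4, which encodes the related ATP channel and is the next coding gene after P2rx7 on chromosome 5, had 426 and 410 counts in the same order, or 21.3 and 18.7 CPM. Its ratio was 1.14 (0.993 to 1.31), so a difference was not detectable at this depth with this scaling. The quotient of P2rx7 to P2rx4 was 1.31 per kilobase in the DKO library and 0.735 in the WT library, 1.78-fold higher in the DKO library (1.47 to 2.14). With summed exon length the quotients were 1.95 and 1.10, so which of the 2 genes was higher in the WT library turned with the length used. The ratios of P2rx7 and Entpd1 themselves were not told apart, since the quotient of Entpd1 to P2rx7 differed 1.09-fold between the libraries (0.908 to 1.30).

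Art2b, which hands the NAD signal to P2X7, lay on the other side of 1 from P2rx7. It had 383 counts in the DKO library and 557 in the WT library, or 19.2 and 25.4 CPM, and was 1.32-fold lower in the DKO library (1.16 to 1.51). This was short of the 2-fold limit. The quotient of Art2b to P2rx7 was 0.951 per kilobase in the DKO library and 2.55 in the WT library, 2.68-fold lower in the DKO library (2.23 to 3.23). With summed exon length the quotients were 1.15 and 3.08, so the order of both genes in the DKO library turned with the length used. Cd38, the main NAD-consuming ectoenzyme, had 540 counts in the DKO library and 542 in the WT library, or 27.0 and 24.7 CPM. Its ratio of 1.09 (0.969 to 1.23) did not leave out 1. Of the 50-base windows of the longest Art2b transcript, 5.92% also occur in transcripts of Art2a-ps, its paralog, or Fam227a, and reads from them may be missing as non-unique. The share was at most 2.16% for each of the other 8 members, and 0 for Entpd1, Nt5e, Adora2a, Ada and Dpp4.

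Adora2a and Dpp4 were the most abundant members in both libraries. Adora2a, the adenosine receptor, had 2832 counts in the DKO library and 3128 in the WT library, or 142 and 143 CPM. Its log2 ratio was -0.01, and it turned to 0.04 when libraries were scaled by total counts and to 0.17 when T cell receptor and CD8 genes set the scale, so no direction is given. Dpp4 had 4177 counts in the DKO library and 3449 in the WT library, or 209 and 157 CPM, and was 1.33-fold higher in the DKO library (1.27 to 1.39). Ada had 450 and 336 counts in the same order, at 22.5 and 15.3 CPM, and was 1.47-fold higher in the DKO library (1.27 to 1.70). Both were below the 2-fold limit. The quotient of Ada to Dpp4 differed 1.11-fold between the libraries (0.951 to 1.29), so their ratios were not told apart. Of 36 pairs of members, the quotient differed between the libraries with an interval that left out 1 in 30 pairs and by at least 2-fold in 7, without adjustment for the number of pairs. Each of those 7 pairs holds Entpd1 or P2rx7, so the count restates the calls of these genes. The pairs share members and are not independent, and the same shares among pairs of other genes were not computed.

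**Figure D2:**
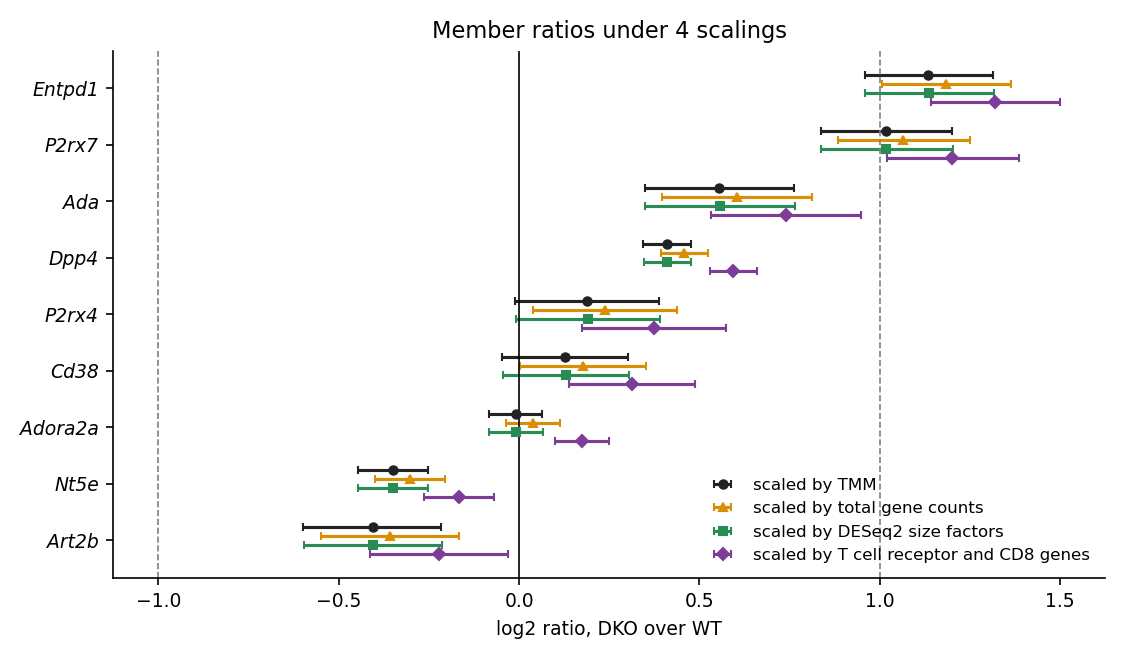
Log2 ratio of each member, DKO over WT, with its exact 95% counting interval under 4 ways of scaling the libraries; dashed lines mark 2-fold. Entpd1 and P2rx7 lie at or beyond 1 under each scaling, Nt5e and Art2b lie below 0 under each, and Adora2a lies on both sides of 0.

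Levels of different members were compared per kilobase of the longest annotated transcript. In the DKO library the order was Adora2a (54.6 CPM per kilobase), Dpp4 (39.7), Nt5e (18.7), Ada (13.3), Entpd1 (9.25), Cd38 (8.26), P2rx7 (7.14), Art2b (6.80) and P2rx4 (5.47). Neighbours from Entpd1 to Art2b had overlapping counting intervals. In the WT library the order was Adora2a (54.9 CPM per kilobase), Dpp4 (29.8), Nt5e (23.9), Ada (9.07), Art2b (9.01), Cd38 (7.56), P2rx4 (4.80), Entpd1 (4.21) and P2rx7 (3.53). There Ada and Art2b overlapped, as did P2rx4 with Entpd1 and Entpd1 with P2rx7. By this length Entpd1 stood at place 5 of 9 in the DKO library and at place 8 in the WT library, P2rx7 at places 7 and 9, and Art2b at places 8 and 5. With the summed length of all annotated exons, the level of Nt5e was lower, 8.69 CPM per kilobase in the DKO library and 11.1 in the WT library, and it stood at places 4 and 3. By that length Entpd1 stood at place 5 in the DKO library and 7 in the WT library, Art2b at places 7 and 4, and P2rx7 at place 8 in both, so its shift in place was not kept.

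**Figure D3:**
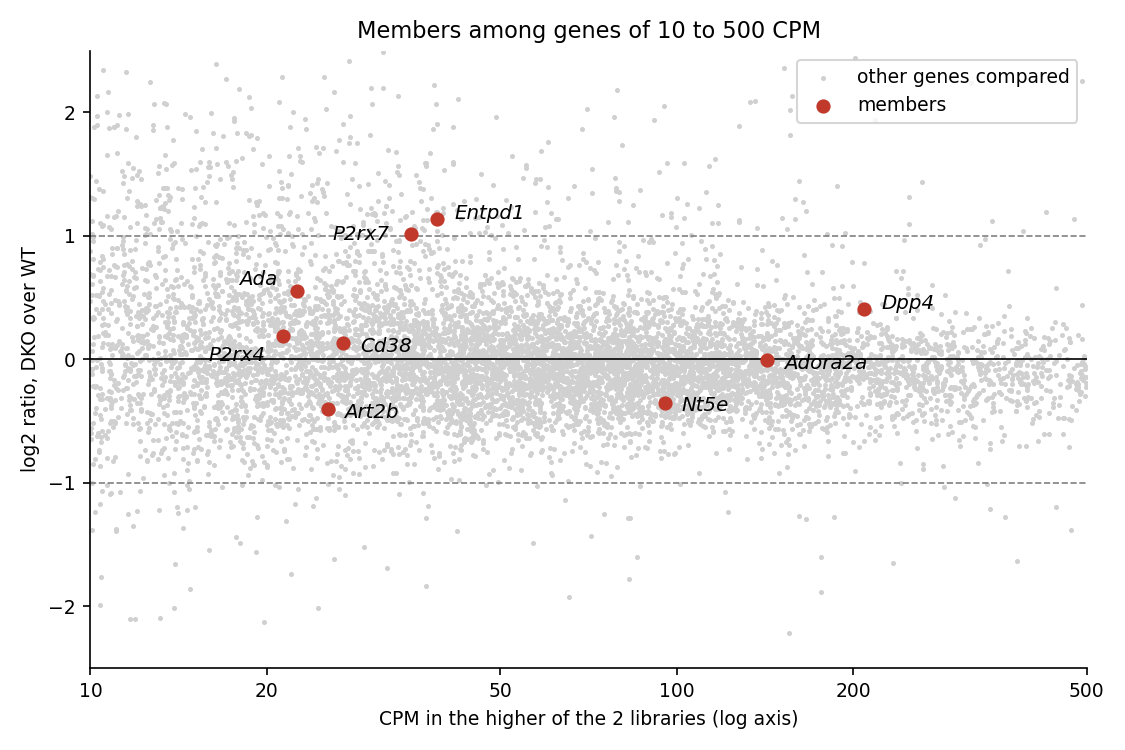
Log2 ratio, DKO over WT, against the CPM of the higher library (log axis) for the members (red, named) and the other genes compared (grey) with 10 to 500 CPM; dashed lines mark 2-fold, and 28 of 8642 genes in this range lie beyond the vertical axis. Entpd1 and P2rx7 sit at the 2-fold line, where few genes of like abundance lie beyond, and the other 7 sit within the cloud.

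Promoters are shown for the 2 members past 2-fold and, for contrast, for Nt5e and Art2b, whose ratios lay below 1. Each is the window of 300 bases that ends 50 bases after a RefSeq gene start in GRCm38.p6, read 5′ to 3′ on the gene's strand. The windows are chr19:40612116-40612415 (+) and chr19:40659520-40659819 (+) for Entpd1, chr5:122643677-122643976 (+) and chr5:122650133-122650432 (+) for P2rx7, chr9:88327359-88327658 (+) for Nt5e and chr7:101581112-101581411 (-) for Art2b. Of the 9 members, 8 matched an entry. Entpd1 and P2rx7 have 2 listed starts each, and counts per gene do not show which start was used. Capitals mark matches on either strand to GGTGTGA (a T-box half-site, the kind that Eomes binds), CAGAC (a SMAD element of the TGF-beta pathway), TGANTCA (an AP-1 site) or TGACGTCA (a cyclic AMP response element). No listed match overlaps another.
Entpd1, start 1 of 2: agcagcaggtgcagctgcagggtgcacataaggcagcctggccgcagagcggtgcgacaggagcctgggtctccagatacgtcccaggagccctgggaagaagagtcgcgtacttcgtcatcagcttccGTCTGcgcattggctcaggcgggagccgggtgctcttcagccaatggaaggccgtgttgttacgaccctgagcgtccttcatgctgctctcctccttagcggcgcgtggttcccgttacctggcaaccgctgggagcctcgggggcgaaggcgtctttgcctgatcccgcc
Entpd1, start 2 of 2: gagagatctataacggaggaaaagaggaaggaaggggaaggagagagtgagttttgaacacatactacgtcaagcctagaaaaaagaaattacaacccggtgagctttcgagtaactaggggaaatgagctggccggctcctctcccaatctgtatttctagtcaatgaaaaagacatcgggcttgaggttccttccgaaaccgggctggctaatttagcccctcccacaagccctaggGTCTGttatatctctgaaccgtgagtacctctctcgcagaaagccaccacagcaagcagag
P2rx7, start 1 of 2: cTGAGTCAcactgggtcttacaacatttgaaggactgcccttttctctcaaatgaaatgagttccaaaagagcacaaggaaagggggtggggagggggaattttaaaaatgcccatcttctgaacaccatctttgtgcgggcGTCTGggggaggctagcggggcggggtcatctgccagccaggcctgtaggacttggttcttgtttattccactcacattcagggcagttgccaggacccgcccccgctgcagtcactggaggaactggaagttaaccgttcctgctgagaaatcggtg
P2rx7, start 2 of 2: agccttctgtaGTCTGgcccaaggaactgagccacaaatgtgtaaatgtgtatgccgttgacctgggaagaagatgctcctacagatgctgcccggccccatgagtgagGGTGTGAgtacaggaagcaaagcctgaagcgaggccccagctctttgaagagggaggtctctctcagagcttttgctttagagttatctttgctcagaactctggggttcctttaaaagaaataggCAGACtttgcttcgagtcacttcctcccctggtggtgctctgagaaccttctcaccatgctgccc
Nt5e: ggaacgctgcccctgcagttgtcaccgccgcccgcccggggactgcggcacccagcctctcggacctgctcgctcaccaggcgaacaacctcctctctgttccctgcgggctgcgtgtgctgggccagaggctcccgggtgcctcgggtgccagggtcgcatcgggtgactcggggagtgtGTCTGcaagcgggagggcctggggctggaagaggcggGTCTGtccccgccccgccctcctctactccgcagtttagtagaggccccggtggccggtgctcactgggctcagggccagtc
Art2b: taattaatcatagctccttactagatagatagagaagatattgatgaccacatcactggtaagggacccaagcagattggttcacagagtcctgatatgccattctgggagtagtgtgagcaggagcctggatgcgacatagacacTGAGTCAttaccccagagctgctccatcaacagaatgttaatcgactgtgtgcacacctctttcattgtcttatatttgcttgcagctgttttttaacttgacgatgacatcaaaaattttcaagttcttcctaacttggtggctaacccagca
Each of the 4 Entpd1 and P2rx7 windows holds a CAGAC match, as does that of Nt5e and as do 49.6% of all 32851 RefSeq promoter windows of this length. GGTGTGA was found in the second P2rx7 window, 141 bases before the start, and in 3.98% of all windows. TGANTCA was found in the first P2rx7 window and in that of Art2b, and in 7.81% of all windows. TGACGTCA was in none of the 6 windows and in 1.79% of all. A match is a run of letters and was not tested as a binding site. The sequence of Adora2a was not used here.

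Other genes of purine and NAD handling were mostly short of 2-fold. Of 131 such genes in 12 lists, 101 reached 1 CPM, of which 15 were higher, 3 lower and 83 neither, which is 14.9% and 2.97% against the backgrounds of 11.6% and 3.60%. Their median log2 ratio was 0.13. Setting the 3 genes that had no WT count at their fold against a floor of 3 counts could not move it, because those folds also lie above it. Low abundance went with the higher calls: 9 of the 18 genes below 5 CPM were higher, against 6 of the 83 genes at 5 CPM or more. This link comes partly from the filter. Of those 9 genes, only Enpp2 also reached 1 CPM in the WT library, so the filter fixed the direction of the others. Of all genes compared, 35.0% were higher at 1 to 5 CPM and 7.42% at 5 CPM or more.

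Among receptors, all 8 measured P2Y ratios were above 1, with 4 higher, 0 lower and 4 neither, and a median log2 ratio of 1.16. The lowest of these ratios, 1.06 (0.916 to 1.22) and 1.21 (0.881 to 1.65), had intervals that did not leave out 1. P2ry1 and P2ry2 reached 1 CPM in the DKO library alone, so the filter itself put their ratios above 1. The median of 1.16 rests partly on them. P2ry14, a receptor for UDP-sugars, had 232 counts in the DKO library and 64 in the WT library and was 3.95-fold higher (3.00 to 5.33). P2ry6, a UDP receptor, was 3.44-fold higher (2.56 to 4.75) with 180 and 57 counts, and P2ry1, an ADP receptor, was 5.65-fold higher (3.19 to 11.5) with 69 and 13. P2ry2, an ATP and UTP receptor, had 50 counts in the DKO library and was listed at 0 in the WT library. It was 18.3-fold higher against a floor of 3 counts, with a lower interval limit of 14.3. P2ry10, the most abundant of the list, had 173 CPM in the DKO library and 130 CPM in the WT library, a ratio of 1.33 (1.26 to 1.39). The other P2Y genes lay below 20 CPM, where higher genes were common: 35.0% of all genes of 1 to 5 CPM and 18.8% of those of 5 to 20 CPM. Of the other P2X genes 1 was measured, P2rx1, with 2 counts in the DKO library and 27 in the WT library, a ratio of 0.0997 (0.00937 to 0.323). Of the other adenosine receptors 1 was measured, Adora2b, with 44 and 3 counts, a ratio of 13.9 (5.16 to 81.0). P2rx1 reached 1 CPM in the WT library alone and Adora2b in the DKO library alone, so the filter fixed the direction of each.

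Enzymes beside the members split. Of the 9 measured ENTPD, ENPP and phosphatase genes, 2 were higher, 0 lower and 7 neither, with a median log2 ratio of -0.02 that was positive with total counts, or with T cell receptor and CD8 genes, as the scale. Enpp1, which splits ATP to AMP and pyrophosphate, had 584 counts in the DKO library and 296 in the WT library and was 2.16-fold higher (1.88 to 2.50). Enpp2, which makes lysophosphatidic acid, was 3.10-fold higher (1.93 to 5.30) with 66 and 23 counts, and Entpd5, an enzyme of the endoplasmic reticulum and the most abundant of the list, had 115 and 169 CPM, a ratio of 0.683 (0.648 to 0.719). Bst1, the neighbour and paralog of Cd38, was 2.80-fold higher (2.08 to 3.86) with 154 and 60 counts, while Art4, another ADP-ribosyltransferase gene, had 101 and 237 counts and was 2.13-fold lower (1.69 to 2.73). Art4 was the most abundant of that list of 3 measured genes, of which 1 met neither limit, and its ratio was 0.533, within 2-fold, with T cell receptor and CD8 genes as the scale. Dpp7, a lysosomal dipeptidyl peptidase, was 2.94-fold lower (2.42 to 3.62), with 130 counts in the DKO library and 421 in the WT library; of 6 measured genes of the DPP4 family list it was the 1 past 2-fold, with 0 higher and 5 neither. Dpp3 was the most abundant of them, at 119 and 143 CPM, a ratio of 0.830.

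Inside the cell, none of the 16 measured genes of AMP and adenosine turnover and none of the 16 of NAD synthesis and use was past 2-fold with TMM scaling, with median log2 ratios of 0.11 and 0.31. Xdh, which makes urate, was the most abundant of the first list, at 244 CPM in the DKO library and 125 CPM in the WT library, a ratio of 1.96 (1.87 to 2.05). With total counts as the scale, Xdh was 2.03-fold higher. With T cell receptor and CD8 genes as the scale it was 2.23-fold higher, and Ampd1 and Naprt1 were 2.05-fold and 2.03-fold higher. Nadk, the NAD kinase gene, led the second at 214 and 163 CPM, a ratio of 1.31 (1.25 to 1.37). Of 5 measured nucleoside transporters 1 was higher, Slc29a4, with 31 counts in the DKO library and 1 in the WT library (interval of the ratio 5.67 to 1386). Slc28a2, a concentrative transporter, was the most abundant at 80.8 and 82.2 CPM, a ratio whose interval of 0.918 to 1.05 did not leave out 1.

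Of 10 measured genes of ATP release and P2X7-linked effects, 2 were higher, 0 lower and 8 neither, with a median log2 ratio of -0.01 that was positive with total counts, or with T cell receptor and CD8 genes, as the scale. Both higher genes belong to the inflammasome, a caspase-activating complex of myeloid cells. Nlrp3 had 376 counts in the DKO library and 117 in the WT library and was 3.52-fold higher (2.86 to 4.38), and Casp1 was 2.43-fold higher (2.13 to 2.78) with 731 and 330. Pycard, their adaptor and the most abundant of the list, had 176 and 160 CPM, a ratio of 1.10 (1.05 to 1.16). Below the A2A receptor, 4 of 23 measured cyclic AMP genes were higher, 0 lower and 19 neither, with a median log2 ratio of -0.02, likewise positive under those scalings. All 4 had at most 40 counts in either library. Adcy1 was 2.40-fold higher (1.37 to 4.52) and Adcy9 was 3.29-fold higher (1.63 to 7.78). Adcy4 and Rapgef3, listed at 0 in the WT library, were 13.9-fold and 9.14-fold higher against a floor of 3 counts, with lower interval limits of 10.8 and 6.90. All 4 reached 1 CPM in the DKO library alone, so the filter fixed their direction. Of all genes of 1 to 5 CPM, 35.0% were higher. Gnas, the Gs alpha subunit and the most abundant of the list, had 797 and 1022 CPM, a ratio of 0.779 (0.764 to 0.795).

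**Figure D4:**
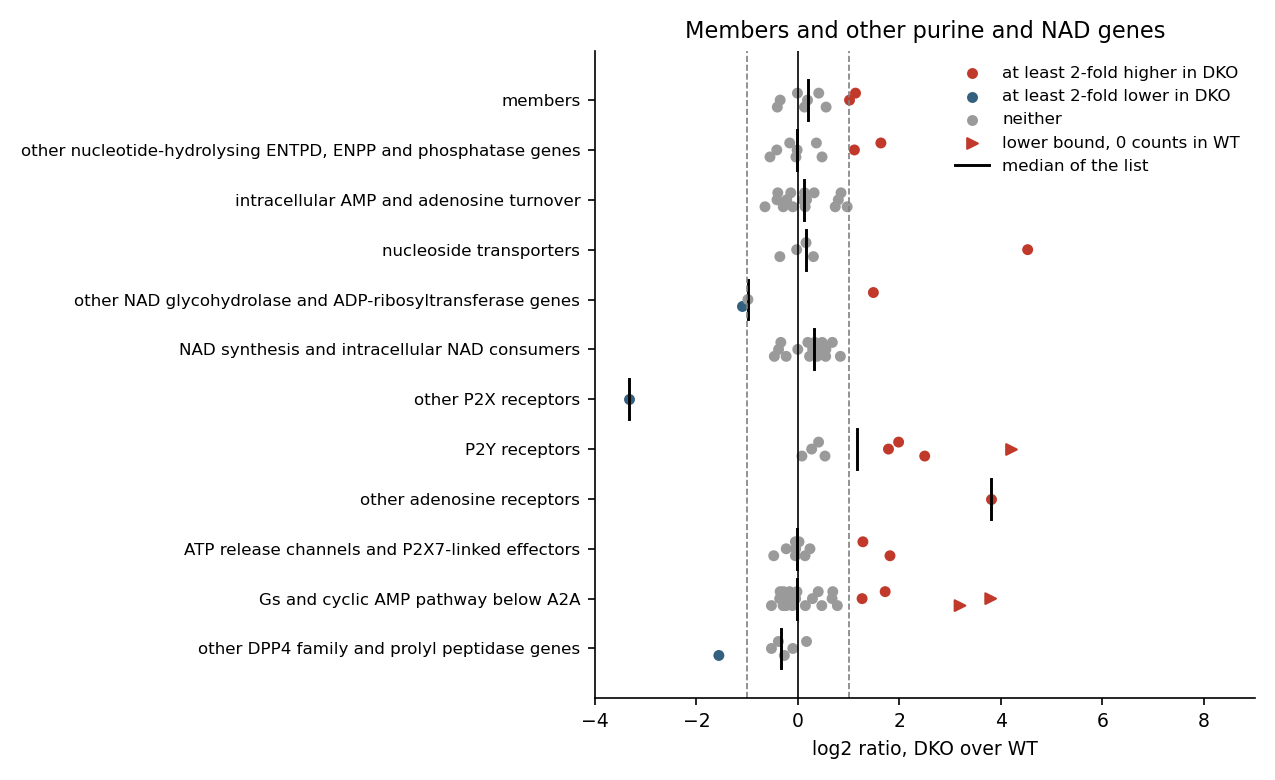
Log2 ratio, DKO over WT, of each measured member and of each measured gene in 11 of the 12 other lists. Red is at least 2-fold higher, blue at least 2-fold lower, and black bars are list medians. Triangles, marked as lower bounds, are folds against a WT floor of 3 counts for 3 genes listed at 0 in the WT library. They leave out counting error of the DKO count. The P2Y receptor points lie to the right of 0, though counting intervals, not drawn, include no difference for the lowest of them. P2ry1 and P2ry2 reached 1 CPM in the DKO library alone, so the filter put them there. Both intracellular lists stay between the dashed 2-fold lines with this TMM scaling.

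Several of these genes are also carried by cells other than CD8+ T cells. CD39 and P2X7 are found on FOXP3+ CD4+ T cells and myeloid cells, CD39 also on B cells, and P2Y receptors and inflammasome genes in myeloid cells and platelets. Markers of most such cells had more CPM in the DKO library. The counts of higher and lower markers below stand beside 11.6% and 3.60% of all genes compared. The share of higher genes was 35.0% at 1 to 5 CPM, 18.8% at 5 to 20 CPM, 4.71% at 20 to 100 CPM and 2.17% at 100 CPM or more. CD4+ and FOXP3+ T cell markers summed to 227 CPM in the DKO library and 97.6 CPM in the WT library, with 5 of 6 at least 2-fold higher. The most abundant were Zbtb7b, at 101 and 67.8 CPM in the same order, and Cd4, at 79.0 and 17.4 CPM. Monocyte and macrophage markers summed to 1480 and 773 CPM, with 2 of 7 higher, led by Lyz2 and Csf1r. Neutrophil markers summed to 2562 and 577 CPM, with 5 of 8 higher, led by S100a9 and S100a8. Dendritic cell markers summed to 1448 and 467 CPM, with 6 of 7 higher, led by H2-Aa and Itgax. Those of NK cells summed to 926 and 558 CPM, with 3 of 5 higher, led by Tyrobp and Klrb1c. Of these 5 ratios 1 was below 1, at 0.620 (0.585 to 0.656). Plasma cell markers summed to 411 and 204 CPM, with 2 of 5 higher and 1 lower, led by Igj and 2010001M09Rik. B cell markers summed to 96.2 and 137 CPM, with 1 of 8 measured higher and 2 lower. Of these 8 ratios 6 were above 1, at a median log2 ratio of 0.59, and the most abundant lay on both sides: Cd22 had 24.1 and 82.8 CPM and Cd79b 44.6 and 36.6 CPM. Erythroid and platelet markers summed to 30.2 and 14.5 CPM, with 3 of 4 measured higher, led by Ppbp and Itga2b, and the globin genes Hba-a1 and Hbb-b1 were listed at 0 in both libraries. CD8+ T cell markers summed to 6470 CPM in the DKO library and 7211 CPM in the WT library, with 0 of 7 past 2-fold. The part of other cells in the ratios of Entpd1, P2rx7 and the other genes was not tested, and fewer cells of a type and less RNA per cell cannot be told apart in such data.

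**Figure D5:**
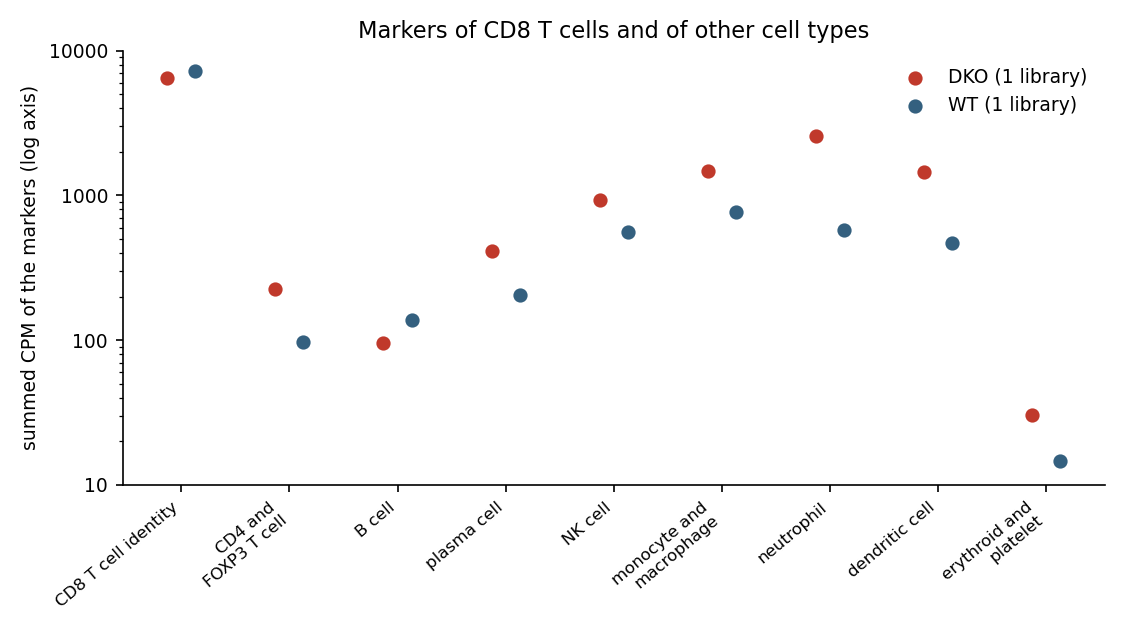
Summed CPM (log axis) of the markers of CD8+ T cells and of 8 other cell types in the DKO library (red) and the WT library (blue). The sums of CD8+ T cell markers lie close together at 6470 and 7211 CPM, the neutrophil sums lie farthest apart at 2562 and 577 CPM, and the B cell marker sum is lower in the DKO library, at 96.2 and 137 CPM.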

How the data were processed

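The authors deposited raw read counts per gene, 1 table a library. The labels' protocols name an Illumina TruSeq total RNA preparation read from one end over 50 bases. Named in the submitters' processing notes, with no role or order, are the build mm9, HTSeq, bcl2fastq and TopHat2 2.0.8b. The strand setting is not given in the sources used here, nor is the annotation. The 5 rows that name no gene were left out; non-unique alignments were 64.8% of all rows in the DKO library and 66.4% in the WT library, reads outside genes 4.45% and 4.89%.

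Here, counts were scaled by TMM with edgeR 4.0.16 (factors 1.02 for DKO, 0.983 for WT) in R 4.3.3. Log2 ratios used a prior count of 0.5. Intervals are exact Clopper-Pearson intervals of the DKO share of both counts (scipy 1.17.1), and quotients of members have exact odds ratio intervals. Reads carried no molecular identifiers, so they need not be independent molecules. Where the WT library was at 0, folds were taken against a WT floor of 3 counts, or 0.137 CPM. Such folds leave out counting error of the DKO count, which the lower interval limits include. Variation between animals could not be modelled with 1 library a genotype. The call rule was tested on simulated Poisson counts with set folds. These hold counting error only, so that test cannot show how calls hold across animals. Transcript lengths and 50-base windows came from GENCODE M21 on GRCm38, a build other than that of the files, so no gene coordinates of it are given. The members and lists were chosen with earlier results of these data known. Named were the members, the targeted genes, each pathway list gene past 2-fold, the most abundant gene of each pathway list and the 2 most abundant of each marker list; 1 gene that this rule names is not reported here. Alternatives were DESeq2 1.42.0 size factors, total counts or summed T cell receptor and CD8 genes as scale, other minimums, fold limits and prior count, another length, and each member left out.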

Additional observations from a re-analysis of the deposited data

How the results depend on the processing

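Of the 36 alternative values of the 9 member ratios, 2 had another sign, both of Adora2a. Scaling by T cell receptor and CD8 genes moved the median of all genes by 0.18 (log2) and put 5 members outside their main intervals: Entpd1 at 1.32, Nt5e at -0.17, Cd38 at 0.31, Adora2a at 0.17 and Dpp4 at 0.59, each of which includes that shift. Entpd1 and P2rx7 were higher and 0 members lower under all 3 other scalings, with ratios of 2.20 to 2.49 for Entpd1 and 2.03 to 2.30 for P2rx7. Intervals of Cd38 and P2rx4 left out 1 under scaling by total counts and by T cell receptor and CD8 genes. That of Adora2a, 1.07 to 1.19, left out 1 with T cell receptor and CD8 genes as the scale. The median of the members ranged from 0.16 to 0.37 over 13 alternatives. With a 4-fold limit, 0 members were higher. For all genes, the higher and lower counts were 739 and 146 with a minimum of 5 CPM, 2073 and 987 with a 1.5-fold limit, and 515 and 138 with a 4-fold limit; 692 were lower with no filter. For the purine and NAD lists, 16 were higher with total counts and 19 with T cell receptor and CD8 genes as the scale, 6 were higher with a minimum of 5 CPM, 24 higher and 7 lower with a 1.5-fold limit, and 6 higher and 1 lower with a 4-fold limit. Each of these limits and minimums changes counts by its own construction. Another length moved 16 of 18 levels per kilobase beyond counting error. No paired analysis was possible because there is 1 library per genotype. What missing replicates and depth each limit was not compared.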

Other observations

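Below 1 CPM, several genes of the same families were counted in the DKO library and listed at 0 in the WT library. They were picked after their values were seen, and the DKO library had more genes with counts, 13284 against 12619 in the WT library. Dpp6 was the reverse case, listed at 0 in the DKO library with 4 counts in the WT library. Art2a-ps, a paralog of Art2b, had 18 counts in the DKO library, 6.58-fold higher against the floor of 3 counts (lower interval limit 4.82), while Art2b itself was 1.32-fold lower. Against the same floor, the adenosine receptor gene Adora3 had 19 counts, 6.95-fold higher, Entpd2 had 12, 4.39-fold higher, and P2rx3 had 10, 3.66-fold higher. Their lower interval limits were 5.12, 3.05 and 2.46 in the same order.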
